A study of Mus musculus with 12 samples.

Results

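Genes that p53 switches on and whose products promote cell death were followed in 3 mouse T-cell acute lymphoblastic leukaemia (T-ALL) lines with and without inhibition of β-catenin. These 10 genes, Bbc3, Pmaip1, Bax, Fas, Tnfrsf10b, Eda2r, Perp, Aen, Ei24 and Trp53inp1, were picked by symbol from the 52535 gene symbols counted, for what their products are known to do. Each line, 240, 242 or 352, came from 1 mouse transgenic for Dlx5, a homeobox gene, and for a membrane-targeted Akt2 kinase, both driven in T cells by the Lck promoter. The control cells carried the same transgenes and are called placebo-treated in the study's figure legends. A single library per line was made from cells given PKF118-310, a small molecule that blocks binding of β-catenin to Tcf proteins, and another from control cells, so each group held 3 libraries. A dose and a time are stated by the study but not in the labels, and are not repeated here. In bulk RNA, a change in transcripts per cell and a change in which cells survived cannot be told apart.

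p53 is a transcription factor that is held at low levels by the ubiquitin ligase Mdm2 and accumulates after DNA damage and other stresses. Its death-promoting targets act at several places in the cell. Bbc3 (Puma), Pmaip1 (Noxa) and Bax act in the Bcl-2 pathway at the mitochondrial outer membrane, Fas and Tnfrsf10b are death receptors at the cell surface, and Perp is a membrane protein of cell junctions. Thymocytes, the cells from which these leukaemias arise, are a classical setting of p53-dependent apoptosis.

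In lines 240 and 352, 5 of the 9 members tested rose with PKF118-310 and none fell. The 5 were Bbc3, Bax, Eda2r, Perp and Aen, at log2 fold changes between 0.78 and 2.95. Eda2r had enough counts to be tested in this fit only through its PKF118-310 libraries, which favours a rise. Over all 11760 genes of that fit, 5.01% were called higher and 5.92% lower (edgeR quasi-likelihood test, adjusted p below 0.05, cell line as block). These calls rest on pairing the libraries of a line: with no block, 0 members and 0 genes were called in lines 240 and 352. With the block, DESeq2 called Bbc3 and Aen, among 107 genes called higher and 158 called lower. Across the 9 members the log2 fold change had a median of 0.95, against -0.01 over all genes tested. With line 242 included, 8 members had enough counts to be tested and 0 were called, where 0.00% of all 10331 genes were called in either direction. In that fit 4 members, Bbc3, Bax, Perp and Aen, were higher at an unadjusted p below 0.05, against 2.49% of all genes, and the smallest adjusted p of a member was 0.842 (edgeR quasi-likelihood test). DESeq2 called 2 members over the 3 lines, Bbc3 and Perp, among 35 genes called higher and 10 called lower. The median log2 fold change over the 8 members was 1.07 with all lines, against 0.00 over all genes. Of these 8 members, 6 were higher within each of the 3 lines, against 13.9% of all genes. Fas and Ei24 were the exceptions. Tnfrsf10b, among the 6, passed the count filter of the 3-line fit only through its PKF118-310 libraries. This favours a rise, so the count of 6 and the median over the 8 members are not independent of the filter.

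The treated library of line 242 stood apart from the rest. It held 604984 counts, against 3160824 to 13766638 in the treated libraries of lines 240 and 352 and 3354980 to 13221186 in the 3 controls. Mitochondrial transcripts took 11.8% of its counts and 1.84 to 3.10% of the others. Counts for 21241 genes were found in it, whereas 11227 to 12715 genes would be expected in the other 5 libraries at the same depth. All 8 T-cell markers, Cd3d, Cd3e, Cd3g, Lck, Cd4, Cd8a, Cd8b1 and Thy1, had counts in every library, and together they reached 2437 to 4686 CPM in PKF118-310 cells and 3220 to 4180 CPM in control cells. Within line 242 their sum was 2437 CPM in PKF118-310 cells, against 3989 CPM in control cells. Cd3d, a chain of the T-cell receptor complex, was lower in PKF118-310 cells of each line and was called lower in lines 240 and 352 (log2 fold change -0.66 ± 0.14, edgeR quasi-likelihood adjusted p = 0.00931). The other 7 T-cell markers were not called there. Over the 8 markers the median log2 change was 0.14 within line 240, -0.76 within line 242 and -0.37 within line 352. CPM are counts per 1000000 of the library size after TMM scaling. Because of line 242, the members are given within each line as well as for lines 240 and 352 together.

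**Figure D1:**
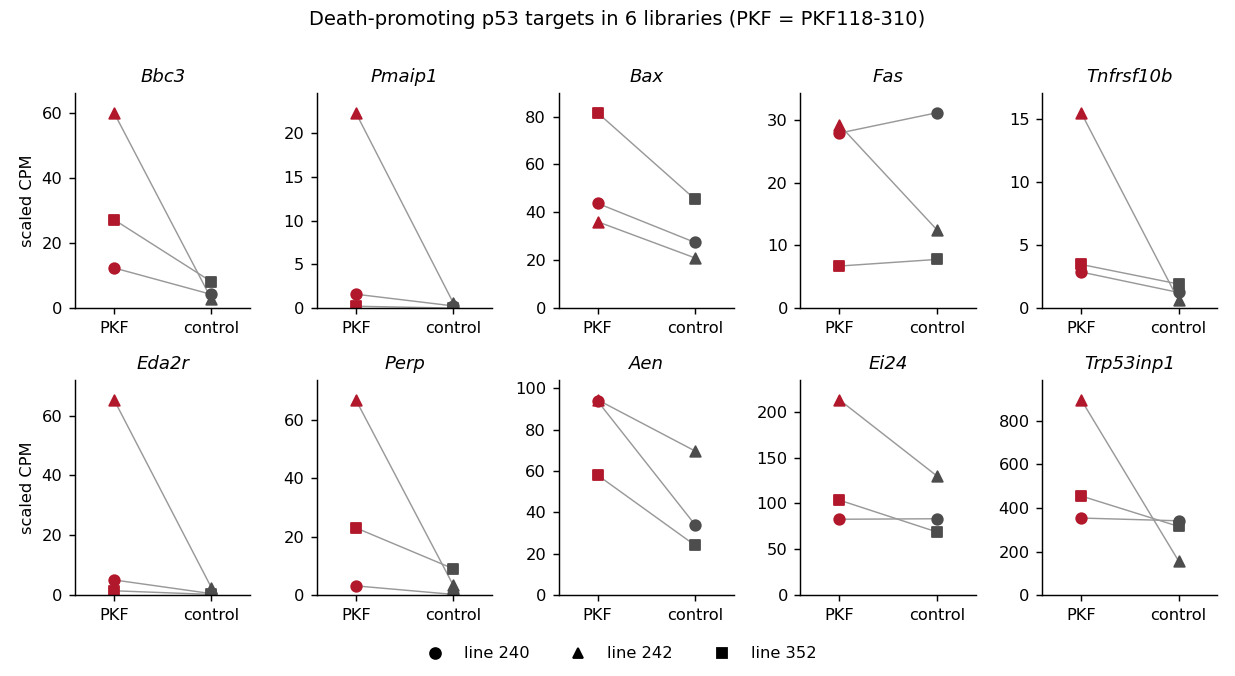
TMM-scaled CPM of the 10 members (vertical axes from 0, a scale per gene) in PKF118-310 cells (left, red) and control cells (right, grey), with a line joining the libraries of each cell line and no error bars since each point is 1 library. In line 242 (triangles) Bbc3, Pmaip1, Eda2r and Perp stood at 60.1, 22.3, 65.3 and 67.0 CPM in PKF118-310 cells, far above the other lines, while Bax was higher in PKF118-310 cells by similar ratios in all 3 lines.

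Promoter sequences are shown for 4 members that rose and for Ei24, which did not pass, to set the response beside the DNA that p53 can read. p53 binds as a tetramer to paired decamers, each made of purines, a C, a pair of A or T bases, a G and pyrimidines. Windows of 300 bases, from 250 before to 50 after a RefSeq start site (GRCm38.p6), were searched for exact decamers, which read alike on both strands. RefSeq windows were matched for 6 of the 10 members, Bbc3, Bax, Fas, Eda2r, Aen and Ei24, with 9 windows in all. Those not matched were Pmaip1, Tnfrsf10b, Perp and Trp53inp1. An exact decamer was found for 3 of the 6 genes, Bax, Aen and Ei24, against 9.55% of the 27025 genes in the table, and in 4 of the 9 windows against 8.36% of all 32851 windows. The 2 Aen windows overlap and hold the same decamer, so the 4 windows hold 3 sites. Among the other p53 pathway genes, 9 of the 17 genes matched held a decamer. Among these 3 genes Bax and Aen rose and Ei24 did not pass. Of the 3 matched members without a decamer, Bbc3 and Eda2r rose and Fas did not pass. Decamers spaced by up to 13 bases occurred in 0 of the 9 windows and in 0.0731% of all windows. A match is only a run of letters, and binding was not measured here. The Bax stretch (chr7:45466899-45467148, minus strand, the 250 bases before the start site) holds 1 decamer, in capitals, and lies in an intron of the predicted gene Gm45808. The Bbc3 stretch (chr7:16309333-16309582, plus strand, 250 bases before the first RefSeq start, inside an intron of a longer Bbc3 transcript) and the Eda2r stretch (chrX:97377217-97377459, minus strand, 243 bases) hold none. For Aen (chr7:78895927-78895956, plus strand) and Ei24 (chr9:36797325-36797354, minus strand) 30 bases around the decamer are shown, which the annotation places in an untranslated exon.
Bax: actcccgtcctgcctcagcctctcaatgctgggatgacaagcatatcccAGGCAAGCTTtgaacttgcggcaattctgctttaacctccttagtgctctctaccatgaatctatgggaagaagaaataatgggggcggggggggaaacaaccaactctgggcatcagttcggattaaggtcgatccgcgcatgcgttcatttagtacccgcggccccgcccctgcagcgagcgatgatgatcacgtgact
Bbc3: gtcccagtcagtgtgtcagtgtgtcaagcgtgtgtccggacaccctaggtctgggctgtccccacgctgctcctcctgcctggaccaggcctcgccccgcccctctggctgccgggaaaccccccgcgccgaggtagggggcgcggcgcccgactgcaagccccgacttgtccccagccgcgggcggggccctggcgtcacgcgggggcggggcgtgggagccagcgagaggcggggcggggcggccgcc
Eda2r: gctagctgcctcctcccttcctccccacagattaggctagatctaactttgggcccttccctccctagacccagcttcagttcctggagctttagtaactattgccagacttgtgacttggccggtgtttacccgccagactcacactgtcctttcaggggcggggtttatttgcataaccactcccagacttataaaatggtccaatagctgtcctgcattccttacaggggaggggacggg
Aen: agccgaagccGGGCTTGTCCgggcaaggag
Ei24: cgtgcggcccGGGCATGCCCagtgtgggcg

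Of the members that act at mitochondria, Bbc3 and Bax rose. Bbc3 (chromosome 7, 16308393 to 16318205) encodes a BH3-only protein that neutralises anti-apoptotic Bcl-2 proteins. It had 12.4, 60.1 and 27.2 CPM in PKF118-310 cells of lines 240, 242 and 352, against 4.20, 2.81 and 8.12 CPM in their controls. All 3 treated values lay above all 3 control values. Within line 240 the ratio was 2.94 (95% interval 1.63 to 5.55), within line 352 it was 3.35 (2.71 to 4.18), and within line 242 it reached 21.4 (10.1 to 50.5). These intervals come from the exact binomial split of the counts and cover counting error only. In line 352 the lanes of a library differed by more than that (chi-square per degree of freedom 2.05 and 2.01), so the intervals of line 352 given here are too narrow for every gene. In lines 240 and 352 together the log2 fold change was 1.69 ± 0.24 (SE, n = 2 lines, edgeR quasi-likelihood adjusted p = 0.00131), and with all 3 lines it was 2.44 ± 0.64.

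Bax (chromosome 7, 45461697 to 45466898) encodes the protein that opens the mitochondrial outer membrane. It stood at 43.7, 36.1 and 81.6 CPM in PKF118-310 cells of lines 240, 242 and 352, against 27.4, 20.95 and 45.5 CPM in their controls. The groups overlapped across lines, since the control of line 352 was above the treated cells of lines 240 and 242, but each treated library was above its own control. Of the members it had the steadiest response, with ratios of 1.60 (1.23 to 2.07), 1.72 (1.001 to 2.85) and 1.79 (1.63 to 1.98) in lines 240, 242 and 352. The log2 fold change was 0.78 ± 0.13 in lines 240 and 352 (SE, n = 2 lines, edgeR quasi-likelihood adjusted p = 0.00358) and 0.80 ± 0.16 over the 3 lines. In line 242 the value rests on 21 counts in the treated library against 67 in the control. Bax shares its strand with Gm45808, which had 0 counts in all libraries.

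Pmaip1 (chromosome 18, 66458604 to 66465550), which encodes a BH3-only protein that binds Mcl1, had too few counts for either fit. Its counts were 5, 13 and 3 in PKF118-310 cells of lines 240, 242 and 352, against 1, 2 and 0 in their controls. The ratio of CPM was 6.41 in line 240, with an interval of 0.718 to 303.4 that includes no change, and 35.7 (8.08 to 326) in line 242. In line 352 both libraries were at or under the 3 counts that a true level may hide behind a count of 0, and no ratio is given. A change of Pmaip1 was therefore not measurable at this depth in lines 240 and 352.

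Among the members at the cell surface, Perp and Eda2r rose in lines 240 and 352, and Fas and Tnfrsf10b did not pass. Perp (chromosome 10, 18845020 to 18857073) encodes a tetraspan membrane protein needed for p53-dependent death of mouse thymocytes. It had 3.17, 67.0 and 23.1 CPM in PKF118-310 cells of lines 240, 242 and 352, against 0.247, 3.44 and 9.07 CPM in their controls. The treated cells of line 240 lay under the controls of lines 242 and 352, so the groups overlapped, yet Perp was higher in the treated library of each line. On 10 counts against 1, line 240 had a ratio of 12.8 (1.83 to 557). Line 242 had a ratio of 19.5 (9.78 to 42.2) and line 352 of 2.54 (2.06 to 3.15). The log2 fold change was 1.50 ± 0.32 in lines 240 and 352 (SE, n = 2 lines, edgeR quasi-likelihood adjusted p = 0.0118).

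Eda2r (chromosome X, 97333840 to 97377216), a receptor of the tumour necrosis factor receptor family that binds the A2 form of ectodysplasin, was low in all controls. Its level was 5.07, 65.3 and 1.45 CPM in PKF118-310 cells of lines 240, 242 and 352, against 0.494, 2.50 and 0.219 CPM in controls. Behind these stood 16, 38 and 21 counts in PKF118-310 cells and 2, 8 and 3 counts in control cells. The treated cells of line 352 fell below the control of line 242. Line 240 had a ratio of 10.3 (2.41 to 92.0), line 352 of 6.61 (1.97 to 34.6) and line 242 of 26.1 (11.99 to 64.7). Eda2r passed the count filter only without line 242, and there only through its PKF118-310 libraries. This favours a rise, so the call of Eda2r is not independent of the filter. Its log2 fold change of 2.95 ± 0.77 in lines 240 and 352 was the largest among the members tested (SE, n = 2 lines, edgeR quasi-likelihood adjusted p = 0.0301).

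Fas (chromosome 19, 34290659 to 34327770), the receptor of Fas ligand, moved in opposite directions in different lines, and that difference was not tested. It was at 27.9, 29.2 and 6.70 CPM in PKF118-310 cells of lines 240, 242 and 352, against 31.1, 12.5 and 7.75 CPM in controls. In lines 240 and 352 the intervals of the ratio, 0.896 (0.675 to 1.19) and 0.864 (0.649 to 1.15), spanned no change. The interval of line 240 left out a rise above 1.19-fold, as far as counting error goes, while that of line 352 is too narrow to set such a limit. In line 242 the ratio was 2.33 (1.24 to 4.21), on 17 counts against 40. The log2 fold change was -0.18 ± 0.21 in lines 240 and 352 (SE, n = 2 lines, edgeR quasi-likelihood adjusted p = 0.640) and 0.23 ± 0.38 over the 3 lines, so the sign of the Fas value rests on line 242.

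Tnfrsf10b (chromosome 14, 69767472 to 69784411) encodes the mouse receptor of the death ligand Trail. It had 2.85, 15.5 and 3.45 CPM in PKF118-310 cells of lines 240, 242 and 352, against 1.24, 0.625 and 1.90 CPM in controls. Every treated value was above every control value, but the counts were small, with 9, 9 and 50 in PKF118-310 cells and 5, 2 and 26 in control cells. The log2 fold change in lines 240 and 352 was 0.95 ± 0.54 and did not pass (SE, n = 2 lines, edgeR quasi-likelihood adjusted p = 0.292). The ratio was 2.31 in line 240, with an interval of 0.695 to 8.77, while it was 24.7 (5.12 to 235) in line 242 and 1.82 (1.11 to 3.04) in line 352.

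**Figure D2:**
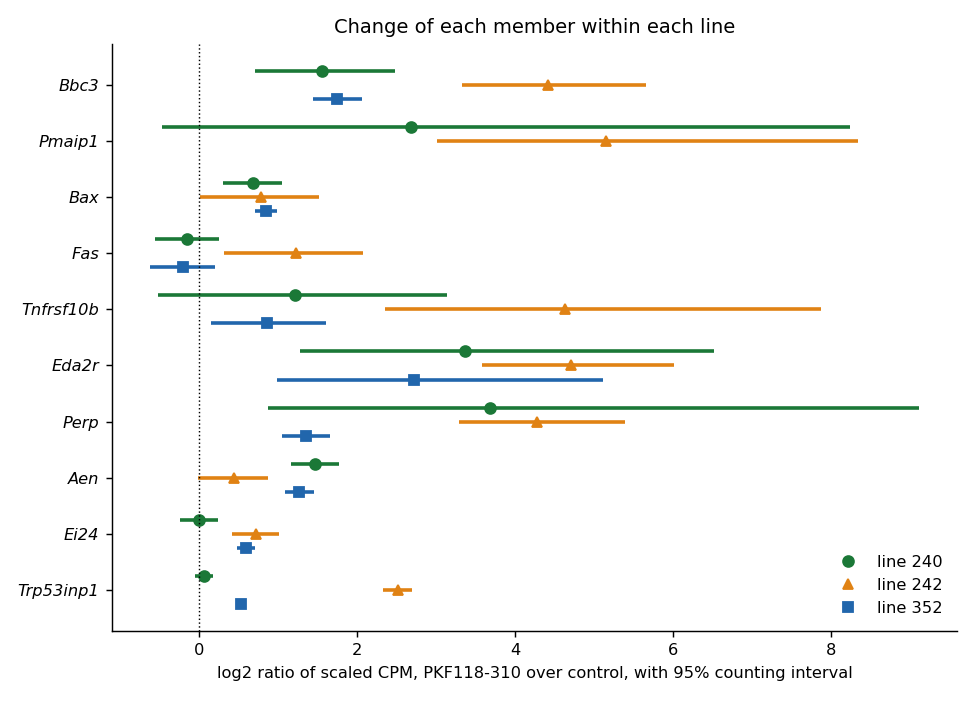
Ratio of TMM-scaled CPM, PKF118-310 over control, on a log2 axis for each member (rows) and line, with bars for the exact 95% interval of counting error, and a dotted line at no change. In lines 240 and 352 Bax and Aen have short bars near 1 on the axis, and in line 242 longer bars that reach about no change. Pmaip1 and Perp in line 240 rest on 1 control count and have the longest bars, and Pmaip1 in line 352 is not drawn.

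The other members are an exonuclease, a membrane protein of the endoplasmic reticulum and a nuclear cofactor. Aen (chromosome 7, 78895854 to 78911209) encodes an exonuclease that degrades DNA and RNA in dying cells. It had 93.8, 94.5 and 58.0 CPM in PKF118-310 cells of lines 240, 242 and 352, against 34.1, 69.7 and 24.1 CPM in controls. Each treated library was above its own control, and the only overlap of the groups was that the treated cells of line 352 lay below the control of line 242. The ratio was 2.75 (2.24 to 3.39) in line 240 and 2.40 (2.11 to 2.74) in line 352, while in line 242 it was 1.35 with an interval of 0.990 to 1.83. With a log2 fold change of 1.35 ± 0.13 in lines 240 and 352, Aen had the smallest adjusted p of the members (SE, n = 2 lines, edgeR quasi-likelihood adjusted p = 1.18e-04).

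Ei24 and Trp53inp1 were the members nearest to no change in line 240. Ei24 (chromosome 9, 36779159 to 36797393), a membrane protein of the endoplasmic reticulum that takes part in autophagy, was at 82.7, 213 and 103.6 CPM in PKF118-310 cells of lines 240, 242 and 352, against 83.3, 130 and 68.9 CPM in controls. Its antisense neighbour Gm26787 had 0 to 2 counts. The ratio of Ei24 was 0.994 (0.842 to 1.17) in line 240 and 1.50 (1.39 to 1.63) in line 352, and the log2 fold change over these lines, 0.33 ± 0.14, did not pass (SE, n = 2 lines, edgeR quasi-likelihood adjusted p = 0.157). Trp53inp1 (chromosome 4, 11156431 to 11174379) encodes a stress protein that works with p53 in the nucleus and also in autophagy. It was the most abundant member, with 354, 897 and 455 CPM in PKF118-310 cells of lines 240, 242 and 352, against 341, 157 and 315 CPM in controls. Its ratio was 1.04 (0.957 to 1.12) for line 240 and 1.44 (1.39 to 1.50) for line 352, but 5.70 (5.03 to 6.46) for line 242. Its log2 fold change in lines 240 and 352 was 0.30 ± 0.13 (SE, n = 2 lines, edgeR quasi-likelihood adjusted p = 0.167). In line 242 Trp53inp1 rested on 522 counts against 503, more than any other member.

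**Figure D3:**
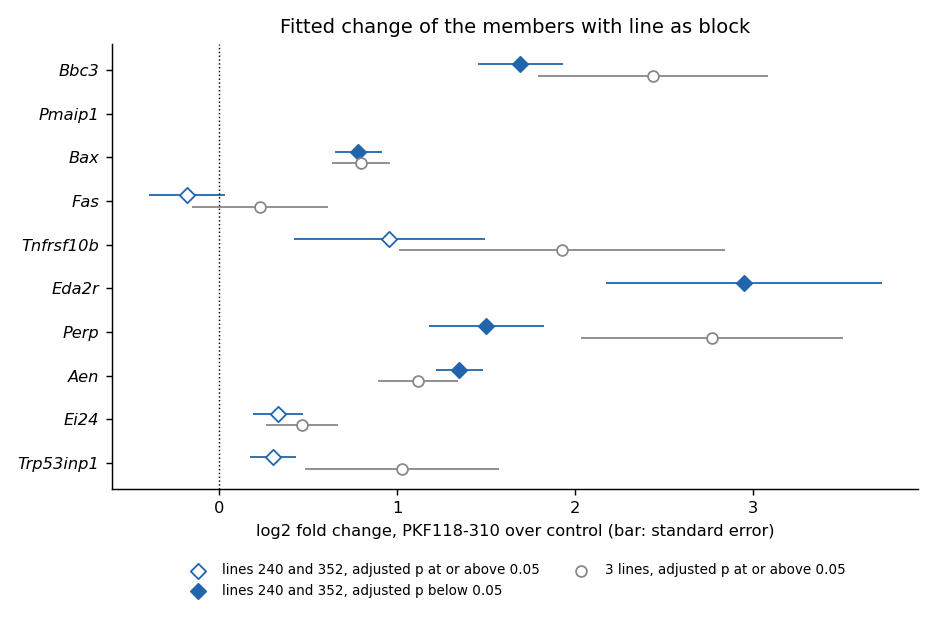
Log2 fold change of the members, PKF118-310 over control, fitted with the cell line as a block in lines 240 and 352 (diamonds) and in 3 lines (circles), with bars for the standard error and filled symbols for an adjusted p below 0.05. The 5 filled diamonds are Bbc3, Bax, Eda2r, Perp and Aen, no circle is filled, and Pmaip1 was in neither fit.

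Levels per kilobase of exon set the members in an order. In PKF118-310 cells the mean over the 3 libraries was 87.8 CPM per kb for Trp53inp1, 34.1 for Bax, 27.3 for Ei24, 15.9 for Perp, 15.6 for Bbc3, 14.2 for Aen, 10.3 for Fas, 4.06 for Eda2r, 2.94 for Pmaip1 and 1.33 for Tnfrsf10b. In control cells it was 41.9 CPM per kb for Trp53inp1, 19.9 for Bax, 19.3 for Ei24, 8.31 for Fas, 7.35 for Aen, 2.37 for Bbc3, 2.18 for Perp, 0.230 for Tnfrsf10b, 0.182 for Eda2r and 0.106 for Pmaip1. The high means of Perp and Bbc3 in PKF118-310 cells rest on line 242, where they were 34.3 and 28.3 CPM per kb. In PKF118-310 cells of lines 240 and 352, Perp was at 1.62 and 11.8 CPM per kb and Bbc3 at 5.82 and 12.8, against 16.2 and 10.001 CPM per kb for Aen. The mean CPM of Perp in PKF118-310 cells had an SD as large as itself (31.1 ± 32.7 CPM, against 4.25 ± 4.47 CPM in control cells, n = 3 each), so its place among Bbc3, Aen and Fas did not hold beyond the spread between lines. Library by library, Trp53inp1 was highest in 5 of the 6 libraries, with Ei24 above it in the control of line 242, and Eda2r, Pmaip1 and Tnfrsf10b were the 3 lowest in 5 of the 6. In the control of line 240 Perp, on 1 count, lay below Tnfrsf10b.

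In line 242, the members that were low in controls moved with many other genes that were near silent. Across the files 18878 genes averaged below 5 CPM in controls, a limit set after the values were seen, and Pmaip1, Tnfrsf10b, Eda2r and Perp were among them. Choosing genes for low control values by itself favours a ratio above 1. In line 242 these genes together reached 84404 CPM in PKF118-310 cells, against 5354 CPM in control cells, a ratio of 15.8. The 4 members had ratios of 19.5 to 35.7 there. Bbc3 lay just above the limit, at a mean of 5.04 CPM in controls and 2.81 CPM in the control of line 242. Its ratio of 21.4 in line 242 was within the range of these members. In line 240 the near-silent genes summed to 8480 CPM in PKF118-310 cells and 6038 CPM in control cells (ratio 1.40), and in line 352 to 9494 and 7840 CPM (ratio 1.21). There Eda2r had ratios of 10.3 in line 240 and 6.61 in line 352, and Perp of 12.8 and 2.54. Tnfrsf10b had ratios of 2.31 (0.695 to 8.77) and 1.82 (1.11 to 3.04), and Pmaip1 of 6.41 (0.718 to 303.4) in line 240 with none given in line 352. Among the 1034 genes of lowest mean abundance in the 3-line fit, the median log2 change was 1.06 within line 242, against -0.05 for line 240 and -0.00 for line 352.

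The summed B-cell and the summed stromal and epithelial markers were also higher in PKF118-310 cells of each line, most of all in line 242. The 5 B-cell markers summed to 3.17, 77.3 and 1.31 CPM in PKF118-310 cells of lines 240, 242 and 352, against 0.494, 0 and 0.293 CPM in controls. In the treated library of line 242 this was 43 counts of Pax5, with Cd79a and Ms4a1 at 1 count each and Cd79b at 0. Pax5, a B-cell transcription factor, had 7 and 16 counts in PKF118-310 cells of lines 240 and 352, against 1 and 0 in their controls. The rise of the B-cell sum was thus mainly Pax5 in these lines too. The other B-cell markers had 0 to 2 counts in each of these libraries. In line 352 Cd79a had 2 counts in both groups and Cd79b had 0 in PKF118-310 cells, against 2 in the control. Pax5 was called higher in the fit of these lines that called the 5 members (log2 fold change 4.27 ± 1.21, edgeR quasi-likelihood adjusted p = 0.0412). Like Eda2r, it passed the count filter only through its PKF118-310 libraries. The 5 stromal and epithelial markers summed to 2.22, 55.0 and 1.66 CPM in PKF118-310 cells and 0, 0.313 and 0.439 CPM in controls, with Krt8 at 0 in the treated cells of line 242. Myeloid markers, which were lower in PKF118-310 cells of line 352, summed to 14.9, 51.5 and 37.9 CPM in PKF118-310 cells and 11.6, 20.6 and 47.4 CPM in control cells, with Lyz2 at 0 throughout. The 5 erythroid markers stayed at 0 to 2 counts in every library. The part of these transcripts in the values of the members, in line 242 or in lines 240 and 352, was not tested.

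**Figure D4:**
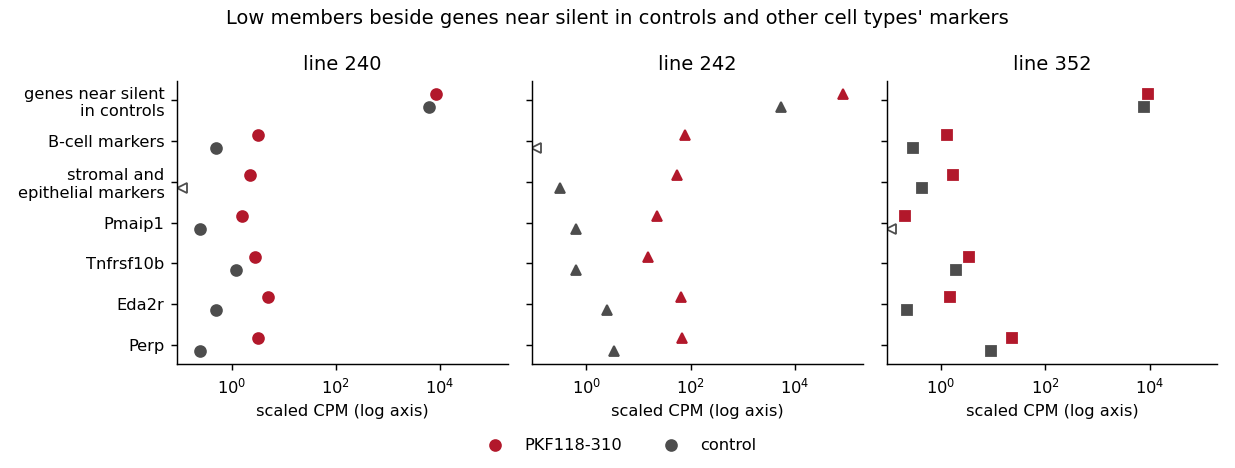
TMM-scaled CPM on a log axis for 18878 genes near silent in controls (summed), for B-cell and for stromal and epithelial markers (summed) and for the 4 lowest members, in PKF118-310 cells (red, upper) and control cells (grey, lower) of each line. Open triangles at the left edge are values of 0, and in line 242 the near-silent genes shifted by a ratio of 15.8, against 1.40 in line 240 and 1.21 in line 352.

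Levels of the members were also compared between lines. Over the 3 lines the test of a difference between lines called 0 of 8 members, against 5.32% of all genes. Bax came nearest (edgeR quasi-likelihood adjusted p = 0.0642). The likelihood ratio test of edgeR called 5 of the 8 members, but it also called 2883 of all 10331 genes. Between lines 352 and 240 alone, 5 of the 9 members differed, against 44.7% of all genes, so differences between these lines were frequent among all genes. Perp was higher in line 352, at a log2 difference of 3.36 ± 0.42 (SE), and so were Bbc3 by 1.08 ± 0.25 and Bax by 0.83 ± 0.14. Fas was lower in line 352, at a log2 difference of -2.01 ± 0.22, as was Aen at -0.59 ± 0.13. For Tnfrsf10b, Eda2r, Ei24 and Trp53inp1 the difference between these lines did not pass the test.

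Of the other genes of the p53 pathway, more rose than fell in lines 240 and 352. Of 21 listed genes, 20 were tested there, of which 9 rose, 2 fell and 9 did not pass. Over all genes of that fit, 5.01% were called higher and 5.92% lower. The median log2 fold change of the listed genes was 0.42, against -0.01 over all genes. Plk2, named after its values were seen, was among those that rose and passed the count filter only through its PKF118-310 libraries. Over the 3 lines 19 were tested, 0 were called and the median was 0.55. Cdkn1a, which encodes the cell cycle inhibitor p21, stood at 156, 840 and 523 CPM in PKF118-310 cells of lines 240, 242 and 352, against 53.9, 42.8 and 281 CPM in controls (log2 fold change 1.16 ± 0.14 in lines 240 and 352, edgeR quasi-likelihood adjusted p = 6.3e-04). Phlda3, an inhibitor of Akt, rose by 1.91 ± 0.25 on the log2 scale in those lines, and Zmat3, an RNA-binding protein, by 1.31 ± 0.12. Ccng1, which encodes cyclin G1, rose by 1.33 ± 0.14 and Gtse1, a microtubule-associated protein that restrains p53, by 0.63 ± 0.11. Within line 242 the ratio was 3.86 for Phlda3, 4.81 for Zmat3, 4.65 for Ccng1 and 2.18 for Gtse1. Trp53 itself rose by 0.46 ± 0.11 in lines 240 and 352 (edgeR quasi-likelihood adjusted p = 0.0164), with 174, 106 and 241 CPM in PKF118-310 cells of lines 240, 242 and 352, against 120, 155 and 183 CPM in controls, and was thus lower in the treated cells of line 242. Mdm2, at 0.29 ± 0.11, did not pass in lines 240 and 352 (edgeR quasi-likelihood adjusted p = 0.108), and its level was 163, 515 and 98.1 CPM in PKF118-310 cells of lines 240, 242 and 352, against 124, 162 and 85.2 CPM in control cells. The genes that fell were Sesn1, a sestrin, at -0.45 ± 0.12 and Cd82, a tetraspanin, at -0.44 ± 0.12, named after their values were seen. Within line 242 the ratio of Sesn1 was 0.755, with an interval of 0.508 to 1.09 that includes no change. That of Cd82 was 0.711 (0.519 to 0.957).

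The partners with which the members act showed few calls, but these lists are too short to set that apart from all genes. In lines 240 and 352, 5.01% of all genes were called higher and 5.92% lower. Of all 11760 genes there, 3026 had an unadjusted p below 0.05, of which 1451 were higher. At mitochondria, 9 of 10 listed partners were tested in lines 240 and 352, and 0 rose and 1 fell in edgeR's quasi-likelihood test (2 were higher at an unadjusted p below 0.05). Bcl2l11, the BH3-only protein Bim, had a log2 fold change of 0.21 in lines 240 and 352 and did not pass, and its ratio was 1.38 (1.24 to 1.54), 2.68 (2.26 to 3.16) and 0.991 (0.948 to 1.04) within lines 240, 242 and 352. The median over the 9 was 0.06. At the cell surface 5 of 7 listed partners were tested in lines 240 and 352 and 0 were called, with 1 lower at an unadjusted p below 0.05 in edgeR's quasi-likelihood test. The median was 0.04. Ripk1, a kinase of the death receptor complex, and Cflar, which blocks caspase 8 there, had log2 fold changes of 0.18 and 0.04, and ratios of 1.48 and 1.73 within line 242. Fasl, the ligand of Fas, and Eda were among the listed partners that were not tested for want of counts.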

How the data were processed

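Messenger RNA of 6 libraries was sequenced, 1 per line and treatment, each in 2 lanes with a deposited file per lane. The authors' files hold raw counts per gene for 52535 symbols, with no normalization. Alignment with HISAT2 to mm10, counting with HTSeq and edgeR are named in the submitters' notes on processing, whereas the methods of the study name TopHat. For versions, annotation and strand setting the sources used here give nothing, so overlapping genes on opposite strands are uncertain. The 2 lanes of a library are runs of 1 library per the labels and were summed. A description in the study's supplement speaks instead of separate cultures. Chi-square per degree of freedom between lanes, over genes with at least 10 counts, was 0.982 to 1.02 in lines 240 and 242 and 2.01 to 2.05 in line 352.

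The summed counts went into edgeR 4.0.16 under R 4.3.3. After filterByExpr (minimum count of 10) and TMM scaling, PKF118-310 was tested against control with the quasi-likelihood F test and the cell line as block, in 3 lines (10331 genes, 2 residual degrees of freedom) and in lines 240 and 352 (11760 genes, 1 residual degree of freedom). The adjusted p threshold was 0.05 (Benjamini-Hochberg, over all genes of a fit). The numbers pair the libraries because a line is 1 animal, and libraries of a line deviated together (r = 0.67, 0.30 and 0.79 across genes in lines 240, 242 and 352). With the block, differences in level between lines are taken out. The p-values set the change with PKF118-310 against its variation between lines. With only 2 or 1 residual degrees of freedom, that variation was estimated largely by sharing information across genes. Within a line the ratio of scaled CPM has an exact Clopper-Pearson 95% interval, and sign counts and log2 changes within a line used a prior count of 2. A count of 0 allows up to 3 counts, or 4.96 CPM in the treated library of line 242 and 0.218 to 0.949 CPM in the others, on unscaled totals. Exon lengths came from GENCODE vM21 for the 48181 symbols it shares with the files.

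The members, gene lists, the fit of lines 240 and 352 and the tests were chosen with earlier results of these data known. Named genes were all members, then Trp53, Mdm2, Cdkn1a and the 4 other p53 genes with the smallest p in the 3-line fit, and the 2 partners with the smallest p in each partner list. Of these genes 1 is not reported here. On simulated counts with 200 changed genes, 14% of 2-fold and 72% of 4-fold changes were recovered in the 3-line fit, and 68% and 87% in lines 240 and 352, with 3 and 4 false calls. These counts were drawn with the dispersions of the fit, and each changed gene had the same change in every line. Changes that differ between lines were not simulated, so the false calls of the real fits may be more. Alternatives left out the block, scaled by library totals or by DESeq2 size factors, or used DESeq2 1.42.0, the likelihood ratio test, no filter or a minimum count of 30, each lane alone, limma 3.58.1 voom with sample weights, and each line left out. Halved counts of line 352, and voom for lines 240 and 352, were added after the data were seen.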

Additional observations from a re-analysis of the deposited data

Results flagged for a closer look

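For 2 members the lines moved in opposite directions, and the difference was not tested, since each line has 1 library per group. Fas had a log2 change of 1.20 within line 242, against -0.16 in line 240 and -0.20 in line 352. Ei24 had a log2 change of -0.0092 within line 240, against 0.71 in line 242 and 0.59 in line 352. The counting intervals of Fas in lines 240 and 352, and of Ei24 in line 240, include no change. No single library was compared with the rest of its group, because each group holds 3.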

How the results depend on the processing

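Of the lines left out in turn, line 242 changed the counts over 3 lines most. The count of genes called was 0 in the fit of all lines and 3 to 1285 with a line left out, highest without line 242, and the count of members called was 0 to 5, with 5 without line 242 and 0 without line 240 or line 352. Other tests of the 3 lines called 45 genes and 2 members (DESeq2), 85 and 4 (likelihood ratio test), 312 and 4 (no filter on low counts) and 801 and 4 (voom with sample weights). No replicate block, other scaling, a minimum count of 30 and each lane alone all left both counts at 0. The sign of Fas turned to -0.15 in lane 1 alone and -0.15 with voom, and with a line left out its log2 fold change ran from -0.18, the value without line 242, to 0.48. In lines 240 and 352, 1285 genes and 5 members became 0 genes and 0 members with no replicate block, 265 and 2 with DESeq2 (Bbc3 and Aen, Bax at an adjusted p of 0.0885, and Eda2r and Perp without an adjusted p), 753 and 3 in lane 2 alone and 635 and 3 with the counts of line 352 halved. Perp missed the threshold in lane 2 alone and with halved counts (adjusted p = 0.0553 and 0.0544), and Eda2r was not kept by the filter there. Leaving out line 240 or 352 from this fit leaves no residual degrees of freedom. The difference between lines was called for 550 genes and 0 members, against 2883 and 5 with the likelihood ratio test, 3009 and 6 with no filter, and 209 to 5257 and 1 to 5 with a line left out. Why these settings differ was not tested. Depth limits Pmaip1 in every line, Eda2r in the 3-line fit, and all members in the treated library of line 242, where 3 counts are 4.96 CPM of its unscaled total.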
